A study of Mus musculus with 18 samples.

Results

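The 9 genes described here, Bdnf, Ntf3, Gdnf, Cntf, Fgf2, Hbegf, Vegfa, Ptn and Mdk, encode secreted trophic factors that astrocytes are known to make. They were chosen by gene symbol from the table of read pairs counted on each gene, not by their values, but with earlier results of these data known, and are 9 of the 51912 genes in that table. Each had at least 10 read pairs over the 18 libraries, so that all 9 were among the 24495 genes tested. The question put to them was whether 24 h of ethanol changed their mRNA in cultured cortical astrocytes, in the whole lysate and in the mRNA bound to astrocyte ribosomes.

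The cells were primary cultures from newborn cortices of mice on a B6;FVB background with the transgene Tg(Aldh1l1-EGFP/Rpl10a)JD130Htz/J, with males and females pooled in equal number, and every dish in every group carried this transgene. They were grown to confluence in serum, subcultured onto dishes and moved to medium without serum for 24 h. Control dishes then stayed for 24 h in medium without serum or ethanol (0 mM), and ethanol dishes for 24 h in the same medium with 50 mM ethanol, each in sealed chambers. In translating ribosome affinity purification (TRAP), antibodies to EGFP pull down ribosomes through the tagged ribosomal protein RPL10A, so that the immunoprecipitate (IP) is enriched in mRNA on tagged ribosomes, while the input is RNA of the lysate before the pull-down. The tag is driven by the Aldh1l1 promoter, so it marks the cells in which this promoter is active, and RNA of other cells can still be carried along. Libraries were made from total RNA depleted of rRNA and kept the strand. There were 6 IP control, 6 IP ethanol, 3 input control and 3 input ethanol libraries, the input libraries coming from the dishes of IP replicates 4 to 6. The pairs counted on genes ranged from 74239854 to 132810705 a library, and their medians were 82866623 (IP control), 89392976.5 (IP ethanol), 86811528 (input control) and 84265467 (input ethanol).

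Trophic factors are proteins that cells release to support the survival, growth and synapses of their neighbours, and astrocytes are a known source of several families of them in the developing cortex. The neurotrophins act through Trk receptors, the GDNF family through GFRα co-receptors with RET or NCAM, the CNTF family through gp130, and the FGF, EGF and VEGF families through receptor tyrosine kinases of their own. Pleiotrophin and midkine bind heparin and chondroitin sulfate and act through the receptor phosphatase PTPRZ1, ALK and syndecans.

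The astrocyte label was checked against marker genes. Of 10 astrocyte markers, 8 were higher and 1 was lower in IP than in input. Over all genes tested, 25.2% were higher and 25.8% lower. The summed level of the astrocyte markers in input was 1132 ± 25.3 CPM (SD, n = 3) in control and 1169 ± 13.7 CPM in ethanol libraries. In IP it was 1778 ± 30.5 CPM (n = 6) and 1892 ± 28.4 CPM. CPM is the usual scale of read counts relative to library size, here after TMM scaling of the libraries. Per kilobase, the most abundant marker was Gfap in both input groups and Aldh1l1 in both IP groups (84.8 CPM per kilobase in IP control). The connexin gene Gjb6 was below 0.1 CPM in all groups, and S100b reached a mean of only 3.82 CPM in input control. Markers of other cells were present as well. The summed level of 10 microglia markers in input was 115 CPM in control and 123 CPM in ethanol, and in IP 30.9 and 35.4 CPM. Cd68 was the most abundant of them, and P2ry12 was below 0.1 CPM throughout. Of the 10 microglia markers, 9 were lower in IP than in input (25.8% of all genes tested), with a median log2 fold change of -2.43. Oligodendrocyte lineage markers summed to 263, 249.9, 391 and 372 CPM in the same order of groups. Olig1 was the most abundant, Mog was below 0.1 CPM in all groups, and Sox10 and Enpp6 were below it in IP. Neuron markers summed to 118, 109, 145.7 and 132 CPM, led by Stmn2, with Snap25 below 0.1 CPM. Endothelial and mural markers summed to 150.7, 148.1, 109 and 106 CPM, nearly all from Pdgfrb, with Kcnj8 and Cldn5 near 0. Fibroblast and meningeal markers summed to 318, 314, 215 and 212 CPM, with Ogn the most abundant per kilobase and Slc22a6 near 0. Of 10 neuron markers, 5 were higher and 2 lower in IP than in input, and of 10 oligodendrocyte lineage markers 4 and 4. Of 9 endothelial and mural markers tested, 2 were higher and 4 lower, and of 9 fibroblast and meningeal markers tested 3 and 5. Because these are bulk samples, fewer cells of a type and less RNA per cell cannot be told apart.

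Levels were compared between genes per kilobase of merged exons. In IP control, Hbegf stood far above the others at 64.0 ± 1.76 CPM per kilobase (SD, n = 6), 5.43 times the next gene (107.004 by the length of its longest transcript). Ptn followed at 11.8 ± 0.335, Mdk at 9.84 ± 0.485, Vegfa at 9.66 ± 0.209, Fgf2 at 6.00 ± 0.177 and Bdnf at 3.46 ± 0.158. Below 1 CPM per kilobase lay Gdnf at 0.743 ± 0.0313, Ntf3 at 0.321 ± 0.0783 and Cntf at 0.111 ± 0.0384. The length of Cntf includes bases shared with another gene, on which no pairs are counted, so that its level per kilobase is too low and its place below Ntf3 is uncertain. Among the other 8 genes, Mdk and Vegfa were the pair of neighbours whose libraries overlapped, while every other pair of neighbours in IP control was apart in all libraries. In IP ethanol the order was the same, again with Mdk and Vegfa overlapping. In input control, Vegfa (10.7 ± 0.200 CPM per kilobase, n = 3) stood above Ptn (10.0 ± 0.0585) and Mdk (7.23 ± 0.463), with the remaining order unchanged. In input ethanol the libraries of Vegfa (10.995 ± 0.399) and Ptn (10.8 ± 0.365) overlapped. Counting only pairs on the strand of the gene placed Ntf3 (0.302 CPM per kilobase) just above Gdnf (0.298) in IP control, and 7 of the 9 genes kept their place.

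**Figure D1:**
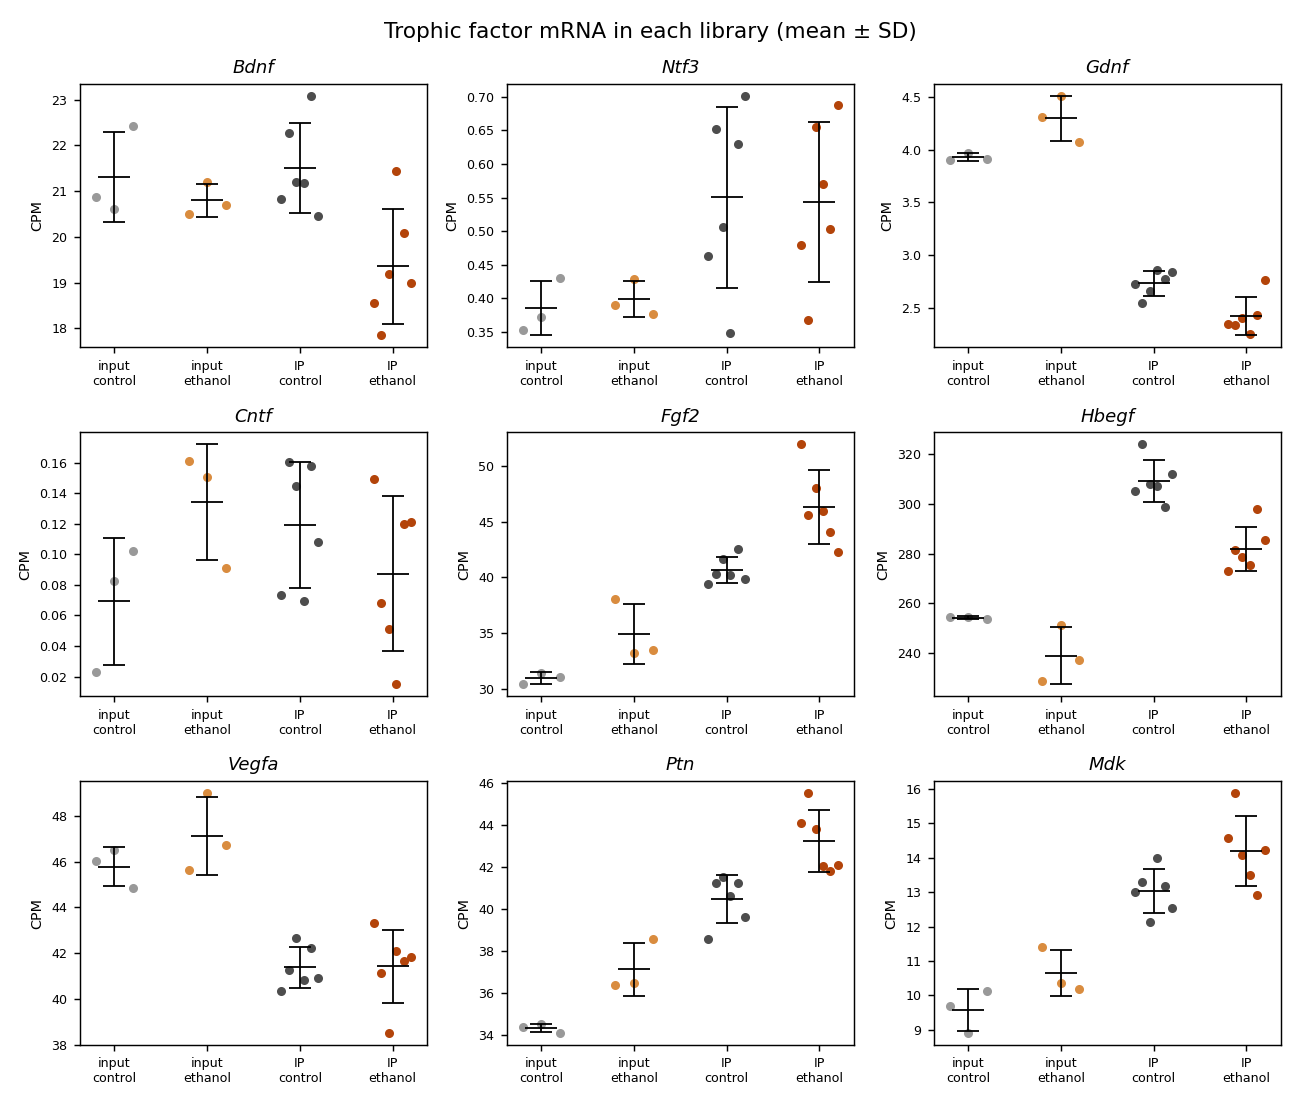
CPM of each trophic factor in each of the 18 libraries (points), with the mean and SD of each group, on a separate linear axis for each gene. Hbegf lies between 228.5 and 324.03 CPM and Cntf between 0.0152 and 0.161 CPM. In IP, the ethanol libraries of Ptn all lie above, and those of Hbegf all below, the control libraries.

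Ethanol moved the trophic factors in both directions and by small amounts. In IP, 3 of the 9 genes rose (Fgf2, Ptn and Mdk) and 2 fell (Bdnf and Hbegf) at an adjusted p below 0.05, by edgeR. Over all genes tested in IP, 11.9% rose and 9.48% fell. The changes that passed lay between log2 fold changes of -0.14 and 0.20, and the median over the 9 genes was 0.00, against 0.01 over all genes tested. The libraries of 2 of the 9, Ptn and Hbegf, did not overlap between IP control and IP ethanol, which held for 9.96% of all genes. In input, 2 of the 9 rose (Fgf2 and Ptn) and 1 fell (Hbegf), where 7.21% of all genes rose and 7.78% fell. The input libraries of 5 of the 9, Gdnf, Fgf2, Ptn, Mdk and Hbegf, did not overlap, which held for 27.1% of all genes. The 3 genes that passed in input also passed in IP, in the same direction. In IP replicates 4 to 6 alone, the dishes of the input libraries, Fgf2 and Hbegf passed and Ptn did not. The count in IP was 3 when IP control replicate 1 or IP ethanol replicate 2 was left out. It was 2 in IP replicates 4 to 6 alone, against 5 in IP replicates 1 to 3 alone. Over all 24495 genes tested, 1824 rose and 1890 fell in IP replicates 4 to 6 alone. In IP replicates 1 to 3 alone, 1623 rose and 1372 fell. The count of the 9 genes in input was 1 without input ethanol replicate 4. In IP replicates 1 to 3 and 4 to 6, in this order, the log2 fold changes were 0.27 and 0.11 for Fgf2, 0.14 and 0.05 for Ptn, 0.21 and 0.03 for Mdk, -0.20 and -0.09 for Bdnf and -0.17 and -0.10 for Hbegf, and the difference between the 2 sets was not tested.

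The marker genes were counted over the same contrast, where 21.4% of all genes tested passed in IP and 15.0% in input. In IP, 4 of 10 astrocyte markers rose, among them Aqp4 (log2 fold change 0.25, adjusted p = 1.77e-12) and Slc1a3 (a glutamate transporter; 0.23, adjusted p = 3.81e-11). Of 10 microglia markers 2 rose, Csf1r (0.33, adjusted p = 0.00032) and Cd68 (0.23, adjusted p = 2.82e-05). Of 10 oligodendrocyte lineage markers, Olig1 fell (-0.17, adjusted p = 3.59e-07) and Pdgfra rose (0.47, adjusted p = 8.91e-05). Of 10 neuron markers, Stmn2 alone passed and fell (-0.18, adjusted p = 2.7e-07). Of 9 endothelial and mural markers tested, Kdr alone passed and fell (-0.40, adjusted p = 4.71e-06), and it is also counted among the receptors below. Of 9 fibroblast and meningeal markers tested Pdgfra alone passed, the same gene as in the oligodendrocyte lineage list. In input, 4 astrocyte markers rose and 3 fell, 3 microglia markers rose, 2 oligodendrocyte lineage markers rose and 1 fell, 1 neuron marker rose and 1 fell, 1 endothelial or mural marker fell, and 1 fibroblast or meningeal marker rose and 1 fell. The IP groups of Csf1r and Cd68 overlapped, while those of Aqp4, Slc1a3, Olig1, Pdgfra, Stmn2 and Kdr did not. Lack of overlap held for 9.96% of all genes, and the markers named had passed in the same libraries. The part of these cells in the results for the trophic factors was not tested.

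**Figure D2:**
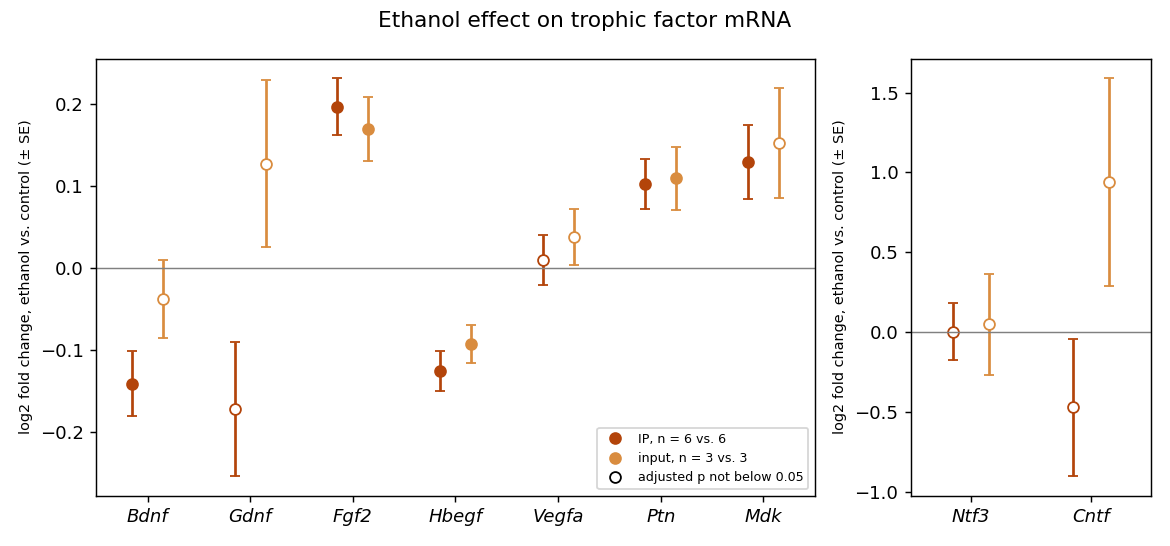
Log2 fold change of ethanol against control for each trophic factor (vertical axis, ± SE) in IP (6 against 6 libraries) and input (3 against 3), with Ntf3 and Cntf on a wider axis of their own. Filled points have an adjusted p below 0.05. Fgf2 and Ptn lie above and Hbegf below 0 in both fractions, and the fold changes of Gdnf have opposite signs in IP and input, neither of them past the threshold.

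Among the neurotrophins, Bdnf (ENSMUSG00000048482), the ligand of TrkB and a factor for synapse growth and plasticity, lay between 20.5 and 23.1 CPM with a median of 21.2 in IP control, and between 17.9 and 21.4 with a median of 19.1 in IP ethanol. All 6 ethanol libraries were below the control mean and 5 were below every control library, while IP ethanol replicate 4 lay among the controls. Bdnf fell by 9.35% in IP (log2 fold change -0.14, SE 0.0399, adjusted p = 0.00577). In IP replicates 4 to 6 alone it did not pass (-0.09, adjusted p = 0.262; over the alternatives the adjusted p ran from 3.82e-05 to 0.262). In input, Bdnf was at 20.6, 20.9 and 22.4 CPM in control and at 20.5, 20.7 and 21.2 CPM in ethanol libraries, which overlapped. The input fit gave -0.04 on the log2 scale (SE 0.0479, adjusted p = 0.710, 3 of 3 ethanol libraries below the control mean). Of its 6217 exon bases, 896 are shared with the antisense gene Gm45346 on the opposite strand. Pairs on the opposite strand made up 0.314% of those counted by strand, and on its own strand alone the IP log2 fold change was -0.15 (adjusted p = 0.00449).

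Ntf3 (ENSMUSG00000049107), neurotrophin 3 and the ligand of TrkC, was scarce, with 772 read pairs over the 18 libraries. It ranged from 0.348 to 0.702 CPM (median 0.568) in IP control and from 0.368 to 0.687 CPM (median 0.536) in IP ethanol. The IP groups overlapped over nearly their whole range, and the log2 fold change was 0.00 (SE 0.181, adjusted p = 0.995, 3 of 6 ethanol libraries above the control mean). In input it was at 0.354, 0.372 and 0.430 CPM in control and at 0.378, 0.391 and 0.428 CPM in ethanol libraries. These overlapped too (log2 fold change 0.05, SE 0.316, adjusted p = 0.965, 2 of 3 above the control mean). With standard errors of this size, changes as small as those of Bdnf or Fgf2 were not detectable.

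Gdnf (ENSMUSG00000022144), glial cell line-derived neurotrophic factor, which supports dopaminergic and motor neurons, was among the scarcer genes. In IP control it ranged from 2.55 to 2.85 CPM with a median of 2.75, and in IP ethanol from 2.25 to 2.76 with a median of 2.37. In 5 of 6 ethanol libraries it was below every control library, and in IP ethanol replicate 6 it was within the control range. The fit did not pass (log2 fold change -0.17, SE 0.0815, adjusted p = 0.134, unadjusted p = 0.0385). In input, Gdnf was at 3.90, 3.91 and 3.97 CPM in control and at 4.07, 4.31 and 4.50 CPM in ethanol libraries. All 3 ethanol libraries were higher than all 3 controls there, and this did not pass either (log2 fold change 0.13, SE 0.102, adjusted p = 0.505).

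The counts of Gdnf come from both strands. Of the pairs over its exons (chromosome 15, 7810846 to 7837575 of GRCm38, + strand), 55.0% lay on the opposite strand, where a mean of 4.35% of pairs did so over all genes in a library. No gene of the GENCODE annotation overlaps its exons on either strand, so the source of these pairs is uncertain, and the counts of Gdnf are not those of its mRNA alone. On its own strand the mean in input was 1.78 CPM in control and 2.07 CPM in ethanol libraries, and in IP 1.10 and 0.978 CPM. On the opposite strand the means were 1.99, 2.06, 1.53 and 1.35 in the same order. The pairs of both strands were thus lower in IP than in input. With own-strand pairs alone, ethanol gave log2 fold changes of -0.16 in IP (adjusted p = 0.398) and 0.21 in the input libraries (adjusted p = 0.383), and the adjusted p over the alternatives ran from 0.0631 to 0.519 in IP and from 0.383 to 0.716 in input.

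**Figure D3:**
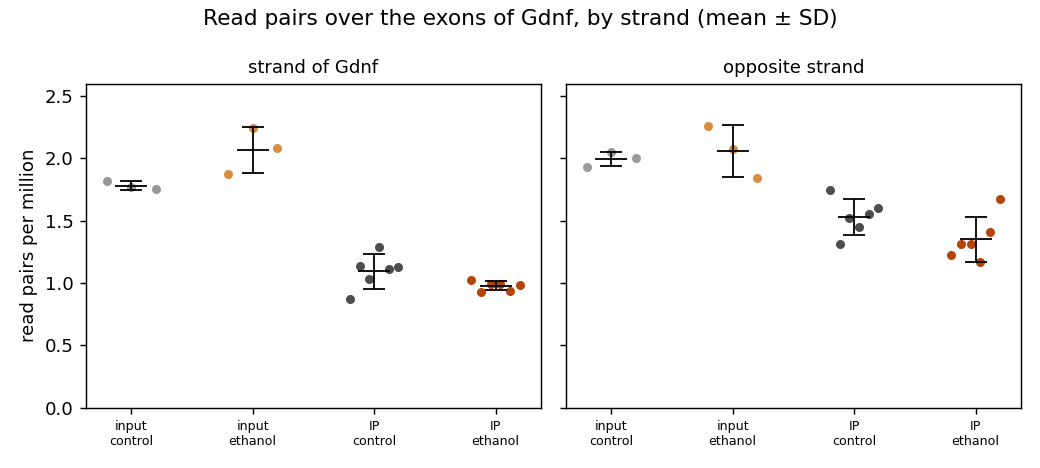
CPM of read pairs over the exons of Gdnf in each library (points; bars show the mean and SD of each group), counted on the strand of the gene (left) and on the opposite strand (right) on the same axis from 0. Both strands carry pairs in every group, with group means from 0.978 to 2.07 on the strand of the gene and from 1.35 to 2.06 on the opposite strand.

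Cntf (ENSMUSG00000079415), ciliary neurotrophic factor, a cytokine without a signal peptide that acts through gp130 and STAT3, was near the limit of detection, with 57 read pairs over the 6 IP control libraries and 19 over the 3 input control libraries. It ranged from 0.0696 to 0.160 CPM (median 0.126) in IP control and from 0.0152 to 0.149 CPM (median 0.0940) in IP ethanol. In input it was at 0.0228, 0.0827 and 0.102 CPM in control and at 0.0911, 0.151 and 0.161 CPM in ethanol libraries. The groups overlapped in both fractions, and the log2 fold changes of -0.47 in IP (SE 0.430, adjusted p = 0.515, 3 of 6 ethanol libraries below the control mean) and 0.94 in input (SE 0.650, adjusted p = 0.409, 3 of 3 above it) did not pass. With 1 library left out they ran from -0.72 to -0.21 in IP and from 0.54 to 1.30 in input. Of its 1073 exon bases, 847 (78.9%) are shared on the same strand with the protein-coding gene Zfp91. Pairs that match both genes are not counted for either, so the level of Cntf rests on the remaining bases and is uncertain.

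Fgf2 (ENSMUSG00000037225), basic fibroblast growth factor, a mitogen for neural progenitors and glia that leaves cells without a signal peptide, was the trophic factor with the largest change that passed in both fractions. It lay between 39.4 and 42.6 CPM (median 40.3) in IP control and between 42.3 and 52.0 CPM (median 45.8) in IP ethanol. All 6 ethanol libraries were above the control mean and 5 were above every control library, with the lowest ethanol library just inside the control range. Fgf2 rose by 14.6% in IP (log2 fold change 0.20, SE 0.0343, adjusted p = 1.59e-05), and in IP replicates 4 to 6 alone the log2 fold change was 0.11 (adjusted p = 0.0424, the highest over the alternatives, where the lowest was 2.96e-09). In input, Fgf2 was at 30.4, 31.1 and 31.4 CPM in control and at 33.2, 33.5 and 38.0 CPM in ethanol libraries. All 3 ethanol libraries were above all 3 controls, and the highest, input ethanol replicate 4, stood apart from the other two. Fgf2 rose by 12.4% in input (log2 fold change 0.17, SE 0.0394, adjusted p = 0.000323). Without input ethanol replicate 4 this did not pass (0.11, adjusted p = 0.0976; 1.92e-05 to 0.0976 over the alternatives).

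The exons of Fgf2 overlap other genes, so its counts depend on how strands are treated. It shares 640 of 6782 exon bases with Nudt6, a protein-coding gene on the opposite strand, and 255 with the transcript Gm43439 on its own strand. Counting by strand gave 1.23 times as many pairs as counting without strand, and 6.23% of the pairs counted by strand lay opposite to Fgf2. On its own strand alone the log2 fold change of ethanol was 0.20 for IP (adjusted p = 5.07e-05) and 0.18 for the input libraries (adjusted p = 1.92e-05).

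Hbegf (ENSMUSG00000024486), heparin-binding EGF-like growth factor, a ligand of EGFR that is made as a membrane-bound precursor and released by metalloproteases, was the most abundant of the 9 genes. It lay between 298.6 and 324.03 CPM (median 307.7) in IP control and between 273.1 and 297.8 CPM (median 280.1) in IP ethanol. All 6 ethanol libraries were below all 6 controls, although the highest ethanol and the lowest control library nearly met. Hbegf fell by 8.36% in IP (log2 fold change -0.13, SE 0.0242, adjusted p = 4.65e-05; 3.07e-11 to 0.0124 over the alternatives). In input it was at 253.5, 254.4 and 254.5 CPM in control and at 228.5, 236.9 and 251.1 CPM in ethanol libraries. The 3 controls lay close together, and the 3 ethanol libraries were below them and spread more widely. Hbegf fell by 6.28% in input (log2 fold change -0.09, SE 0.0230, adjusted p = 0.000756), but did not pass without input ethanol replicate 4 (-0.06, adjusted p = 0.1001; 1.32e-05 to 0.1001 over the alternatives).

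Vegfa (ENSMUSG00000023951), vascular endothelial growth factor A, an inducer of vessel growth that hypoxia raises, lay between 40.3 and 42.7 CPM (median 41.1) in IP control and between 38.5 and 43.3 CPM (median 41.7) in IP ethanol. The ethanol libraries extended below and above the controls. The log2 fold change was 0.01 (SE 0.0305, adjusted p = 0.896, 4 of 6 ethanol libraries above the control mean). In input it was at 44.8, 46.0 and 46.5 CPM in control and at 45.6, 46.7 and 49.0 CPM in ethanol libraries, which overlapped (log2 fold change 0.04, SE 0.0342, adjusted p = 0.575, 2 of 3 above the control mean). These standard errors lay within the range of those of the genes that passed.

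Ptn (ENSMUSG00000029838), pleiotrophin, a heparin-binding factor for neurite outgrowth, lay between 38.6 and 41.5 CPM (median 40.9) in IP control and between 41.8 and 45.5 CPM (median 42.9) in IP ethanol. Every ethanol library was above every control library. Ptn rose by 7.30% in IP (log2 fold change 0.10, SE 0.0303, adjusted p = 0.00943). The call was lost without IP control replicate 1 (adjusted p = 0.0587), without IP ethanol replicate 2 (0.0588) and in IP replicates 4 to 6 alone (log2 fold change 0.05, adjusted p = 0.485), with a range over the alternatives from 3.36e-05 to 0.485. In input, Ptn was at 34.1, 34.4 and 34.5 CPM in control and at 36.4, 36.5 and 38.6 CPM in ethanol libraries. The groups did not overlap, and the controls were close together. Ptn rose by 7.82% in input (log2 fold change 0.11, SE 0.0381, adjusted p = 0.0325). That call was lost without input control replicate 4 (adjusted p = 0.0750), 5 (0.0747) or 6 (0.114) and without input ethanol replicate 6 (0.278), over a range from 0.0185 to 0.278.

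Mdk (ENSMUSG00000027239), midkine, the relative of pleiotrophin and the only other gene of that family, lay between 12.1 and 14.0 CPM (median 13.1) in IP control and between 12.9 and 15.9 CPM (median 14.2) in IP ethanol. The groups overlapped, with 5 of 6 ethanol libraries above the control mean and 4 above every control library. Mdk rose by 9.36% in IP (log2 fold change 0.13, SE 0.0450, adjusted p = 0.0301), the weakest of the calls in IP. It was lost without IP control replicate 1 (adjusted p = 0.0596), 3 (0.127) or 6 (0.0912), without IP ethanol replicate 1 (0.0583), 2 (0.170) or 6 (0.0616) and in IP replicates 4 to 6 alone (log2 fold change 0.03, adjusted p = 0.830), over a range from 0.000191 to 0.830. In input, Mdk was at 8.91, 9.69 and 10.1 CPM in control and at 10.2, 10.4 and 11.4 CPM in ethanol libraries. All 3 ethanol libraries were above the controls, by little for the lowest. The log2 fold change in input was 0.15 (SE 0.0670, adjusted p = 0.118) and passed with a trend in GC content and length removed (0.19, adjusted p = 0.0353; 0.0287 to 0.484 over the alternatives).

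Between the fractions, 7 of the 9 trophic factors differed. In a fit of the 18 libraries that took treatment into account, 5 of the 9 were higher in IP than in input (Ntf3, Fgf2, Ptn, Mdk and Hbegf) and 2 were lower (Gdnf and Vegfa), where 25.2% of all genes were higher and 25.8% lower. That fit had no term for the dish, although the input libraries share dishes with IP replicates 4 to 6. The alternatives included a fit of 12 libraries with the dish as a block. Over all alternatives the highest adjusted p was 3.86e-06 for Fgf2, 2.45e-06 for Ptn, 1.13e-08 for Mdk and 1.05e-09 for Hbegf. It was 1.27e-07 for Gdnf and 3.67e-05 for Vegfa. The libraries of 5 of the 9, Gdnf, Fgf2, Vegfa, Mdk and Hbegf, did not overlap between IP and input, which held for 25% of all genes. Mdk had a mean of 10.1 ± 0.823 CPM (SD, n = 6) in input and 13.6 ± 1.01 CPM (n = 12) in IP, where it was thus higher by 0.43 on the log2 scale (SE 0.0407, adjusted p = 5.05e-15), and Fgf2 had means of 32.9 ± 2.77 and 43.5 ± 3.81 CPM (0.40, SE 0.0314, adjusted p = 1.43e-15). All 12 IP libraries were above the highest input library for both. Hbegf (246.5 ± 11.1 in input and 295.6 ± 16.5 CPM in IP) was higher in IP by 0.26 on the log2 scale (SE 0.0201, adjusted p = 4.43e-19), and Ptn (35.7 ± 1.73 and 41.8 ± 1.91 CPM) by 0.23 (SE 0.0253, adjusted p = 1.84e-12). For Hbegf all 12 IP libraries, and for Ptn 11 of the 12, were above every input library.

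Gdnf and Vegfa went the other way. Gdnf had a mean of 4.11 ± 0.245 CPM in input and 2.57 ± 0.217 CPM in IP, which differed by -0.68 on the log2 scale (SE 0.0655, adjusted p = 7.68e-15), with all 12 IP libraries below all inputs. On its own strand alone the difference was -0.89 (adjusted p = 5.34e-13; 3.97e-25 to 1.27e-07 over the alternatives). Vegfa had means of 46.4 ± 1.41 and 41.4 ± 1.23 CPM (-0.17, SE 0.0246, adjusted p = 1.72e-08), also with all 12 IP libraries below all inputs. Ntf3, at 0.392 ± 0.0312 CPM in input and 0.547 ± 0.121 CPM in IP, was higher in IP by 0.48 (SE 0.167, adjusted p = 0.0121, 10 of 12 IP libraries above all inputs). It did not pass in control libraries alone (adjusted p = 0.0885) or ethanol libraries alone (0.133), over a range from 0.0051 to 0.133. Bdnf (21.1 ± 0.716 and 20.4 ± 1.56 CPM) and Cntf (0.102 ± 0.0502 and 0.103 ± 0.0470 CPM) overlapped, with log2 fold changes of -0.04 (SE 0.0336, adjusted p = 0.302) and 0.00 (SE 0.359, adjusted p = 0.994). Bdnf passed when libraries were scaled by total counts alone (-0.09, adjusted p = 0.0162; 0.0162 to 0.994 over the alternatives). For comparison, the astrocyte gene Aldh1l1 was higher in IP by a log2 fold change of 1.05 (adjusted p = 5.45e-51).

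Whether the ethanol effect itself differed between IP and input was tested as an interaction. By edgeR it passed for 0 of the 9 genes, as for 0 of all genes tested (0%), with 1 of the 9, Gdnf, and 1459 of all genes at an unadjusted p below 0.05. By DESeq2 it passed for 0 of the 9 and for 2 of all genes. With the dish as a block, over the 12 libraries from dishes that gave both IP and input, 102 genes (0.416%) passed, 94 of them higher and 8 lower, and again 0 of the 9. With the trend of GC and length also removed, 20 passed as higher and 36 as lower, with 0 of the 9 among them. For Gdnf the effect in IP minus that in input was -0.31 on the log2 scale (SE 0.127, unadjusted p = 0.0170, adjusted p = 0.786), and with the dish as a block -0.31 (unadjusted p = 0.0437, adjusted p = 0.624; 0.624 to 0.961 over the alternatives). For Bdnf, which passed in IP and not in input, it was -0.11 (SE 0.0661, adjusted p = 0.851), and for Mdk, which did the same, -0.03 (SE 0.0812, adjusted p = 0.978). Over the alternatives it ran from -0.15 to -0.03 for Bdnf and from -0.11 to 0.02 for Mdk, and passed in none. A difference of the ethanol effect between the fractions was therefore not shown for either.

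Levels of the receptors through which these factors act are given here in CPM in IP control for single genes, without correction for length, and are not compared between them. Of 29 receptors and co-receptors, 9 rose and 1 fell with ethanol in IP by edgeR (median log2 fold change 0.07) and 7 rose and 3 fell by DESeq2, where 11.9% of all genes rose and 9.48% fell by edgeR. In input 6 rose and 1 fell by edgeR, where 7.21% of all genes rose and 7.78% fell. The neurotrophin receptor gene Ntrk2 was at 549.9 CPM and rose slightly in IP (log2 fold change 0.07, adjusted p = 0.0302), while Ntrk3 was at 8.44 and Ngfr at 2.08 CPM. The GDNF co-receptor Gfra1 was at 46.3 CPM and rose both in IP (0.24, adjusted p = 1.42e-09) and in the lysate (0.16, adjusted p = 0.000605), with its partners Ret at 1.05 and Ncam1 at 134.6 CPM. For the CNTF receptor, Cntfr was at 24.4 CPM (0.06, adjusted p = 0.227), and its signalling partners Lifr (0.21, adjusted p = 9.72e-05) and Il6st, which encodes gp130 (0.11, adjusted p = 0.00012), rose in IP. Egfr, the receptor for HB-EGF, was at 141.6 CPM and rose in IP (0.13, adjusted p = 3.16e-05), as it did in the lysate (0.08, adjusted p = 0.00895), so that receptor and ligand mRNA moved in opposite directions.

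Per kilobase, the most abundant receptor genes in IP control were Fgfrl1, an FGF receptor without a kinase domain (124 CPM per kilobase; log2 fold change -0.06, adjusted p = 0.0738), and Fgfr1, the main FGF2 receptor (76.2; 0.09, adjusted p = 0.00134). The largest changes that passed were those of Ltk, a receptor kinase related to ALK, which rose from 0.821 to 1.40 CPM in IP (0.77, adjusted p = 4.61e-06), and of the VEGF receptor Kdr, which fell from 5.20 to 3.93 CPM (-0.40, adjusted p = 4.71e-06) and also fell in input (-0.51, adjusted p = 0.000427). The VEGF co-receptor Nrp1 rose in both fractions (0.17, adjusted p = 3.63e-06 in IP; 0.20, adjusted p = 2.47e-12 in input). Ptprz1, the receptor of pleiotrophin and midkine, was at 165.8 CPM and rose in IP (0.08, adjusted p = 0.0446), as it did in the lysate (0.08, adjusted p = 0.0159), with Alk at 0.876 and Sdc3 at 233.8 CPM. For Gfra1, Lifr, Il6st, Egfr, Fgfr1, Ltk, Kdr and Nrp1 all 6 IP ethanol libraries lay beyond all 6 IP controls, while those of Ntrk2 and Ptprz1 overlapped. Lack of overlap held for 9.96% of all genes. All the genes in this comparison had passed in the same libraries, so it is no separate support.

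Of 25 related ligands from the same families, 3 rose and 5 fell in IP (median -0.06) and 0 rose and 2 fell in input by edgeR, where 2 were higher and 6 lower at an unadjusted p below 0.05 and DESeq2 also called 0 up and 2 down. Of all genes, 11.9% rose and 9.48% fell in IP and 7.21% and 7.78% in input. The most abundant per kilobase in IP control were Fgf1 (51.0 CPM per kilobase), which fell in IP (log2 fold change -0.11, adjusted p = 0.000293) where Fgf2 rose, and Vegfb (43.7), which rose (0.10, adjusted p = 0.00567). Among those at 1 CPM or more that passed, the largest changes were those of Nrtn, neurturin of the GDNF family, from 1.49 to 2.01 CPM (0.44, adjusted p = 0.00508), and of Ereg, epiregulin of the EGF family, from 5.04 to 4.06 CPM (-0.31, adjusted p = 0.000587). The IP groups of these 4 ligands overlapped.

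Of 11 genes for the processing and sorting of these factors, 4 rose and 2 fell in IP (median 0.04) and 3 rose and 2 fell in input, where 21.4% of all genes passed in IP and 15.0% in input. Sort1, sortilin, which sorts pro-neurotrophins, rose from 275 to 316 CPM in IP (0.21, adjusted p = 1.52e-10). Adam17, a sheddase of the HB-EGF precursor, rose from 123 to 141 CPM (0.21, adjusted p = 1.88e-09), and the tetraspanin gene Cd9, whose product binds that precursor, was at 111 CPM per kilobase and fell (-0.06, adjusted p = 0.0377). The IP groups did not overlap for any of these 3 genes, as for 9.96% of all genes. These genes had passed in the same libraries, so this is no separate support.

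Targets of ERK, STAT3 and CREB, which act downstream of these factors, and targets of HIF were counted by list. Of 15 ERK feedback targets, 4 rose and 4 fell in IP (median 0.00) and 3 rose and 3 fell in input. Spry1 (-0.26, adjusted p = 1.91e-08) and Fosl1 (-0.18, adjusted p = 0.00257) fell most, Etv5 rose (0.07, adjusted p = 0.0145), and the most abundant, Ier3, gave -0.02 (adjusted p = 0.571). Of 5 STAT3 targets, 1 rose in IP, Stat3 itself (0.15, adjusted p = 6.87e-07), and in input 1 rose and 1 fell. Junb (0.12, adjusted p = 0.0897) and Gfap (-0.02, adjusted p = 0.816), the most abundant of them, did not pass in IP. Of 6 CREB targets, 0 passed in IP by edgeR, where 1 was lower at an unadjusted p below 0.05 and DESeq2 called 1 down, and 2 fell in input. The most abundant of them in IP were Vgf (-0.12, adjusted p = 0.0725) and Sik1 (-0.04, adjusted p = 0.438). Of 18 HIF targets, 5 rose and 4 fell in IP, and 5 rose and 4 fell in input, not all of them the same genes (medians 0.02 and -0.02), while Vegfa, itself a HIF target, did not pass in either. Hk2 (-0.26, adjusted p = 4.07e-07) and Pgk1 (-0.15, adjusted p = 1.58e-06) fell and Mxi1 rose (0.18, adjusted p = 3.7e-06) in IP, and Ldha gave -0.03 (adjusted p = 0.414). For Spry1, Stat3, Hk2, Pgk1 and Mxi1 all 6 IP ethanol libraries lay beyond all 6 controls, and those of Fosl1 and Etv5 overlapped them. Lack of overlap held for 9.96% of all genes. The genes compared here had passed in the same libraries, so it is no separate support. Over all 7 lists, 42 of 109 genes (38.5%) passed in IP, 26 up and 16 down, and 33 (30.3%) in input, 18 up and 15 down, against 21.4% and 15.0% of all genes tested.

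**Figure D4:**
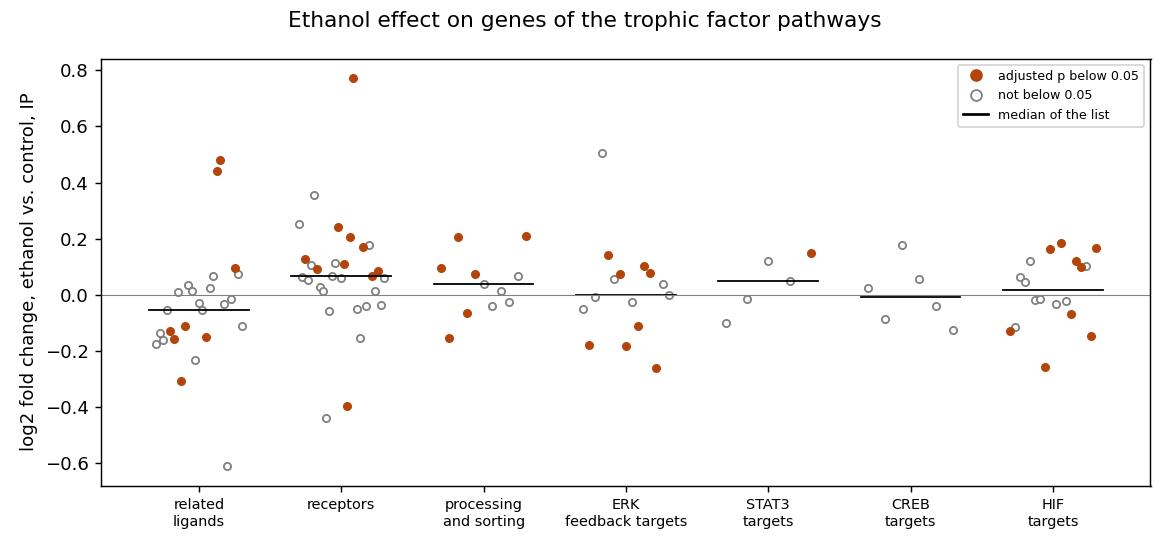
Log2 fold change of ethanol in IP (vertical axis) for each gene of 7 lists (horizontal axis): related ligands, receptors, processing and sorting genes, and targets of ERK, STAT3, CREB and HIF. Filled points have an adjusted p below 0.05, and the line is the median of the list. Medians lie between -0.06 and 0.07, and 26 genes rose and 16 fell.

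The genes whose levels followed each trophic factor most closely over the 12 IP libraries were sought among 10774 protein-coding genes, for the 7 factors with at least 1 CPM. Pearson's r of log2 CPM was 0.961 between Fgf2 and Mxi1, the HIF target named above, and 0.956 between Fgf2 and Emx2, a cortical transcription factor. It was 0.960 between Hbegf and Mafk and 0.959 between Hbegf and Lrpprc. For Ptn it was 0.963 with Wdr60 and 0.935 with Gadd45a, a gene induced by DNA damage, and for Mdk 0.883 with Steap3 and 0.876 with Bdh2. For Vegfa it was 0.934 with Slc35f3 and 0.885 with Actr6. Bdnf was closest to Tigar (0.886) and Thumpd3 (0.875), and Gdnf to Tsr1 (0.910) and Imp4 (0.897), which both serve ribosome synthesis. The Gdnf counts used here took in both strands. Of its pairs, 58.2% in IP control and 57.5% in IP ethanol lay opposite to the gene, so its correlations are not those of its mRNA alone. The 12 points share their treatment groups, dishes and library scaling, and the genes named are the closest of many candidates.

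Promoter sequences from RefSeq, which run from 250 bases before to 50 after a start of transcription, were at hand for 7 of the 9 genes. Bdnf had 7 such entries, Gdnf, Ntf3 and Vegfa had 2 each, and Cntf, Fgf2 and Ptn had 1. The promoters of Fgf2 and Ptn are printed because both genes rose in IP and input and have a single entry. The choice of these promoters and of the motifs was made after the values were seen. Each is written 5′ to 3′ on the strand of its gene, in build GRCm38.p6, with the GC box GGGCGG in capitals. The promoter of Fgf2 is at chr3:37348403-37348702 on the + strand (62.7% GC), and that of Ptn at chr6:36810130-36810429 on the - strand (52% GC).
Fgf2: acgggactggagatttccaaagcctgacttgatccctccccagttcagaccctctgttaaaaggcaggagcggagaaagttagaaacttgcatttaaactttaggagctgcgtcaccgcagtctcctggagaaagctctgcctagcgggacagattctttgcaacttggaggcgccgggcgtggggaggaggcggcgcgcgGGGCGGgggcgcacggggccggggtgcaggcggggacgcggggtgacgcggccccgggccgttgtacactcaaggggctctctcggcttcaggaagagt
Ptn: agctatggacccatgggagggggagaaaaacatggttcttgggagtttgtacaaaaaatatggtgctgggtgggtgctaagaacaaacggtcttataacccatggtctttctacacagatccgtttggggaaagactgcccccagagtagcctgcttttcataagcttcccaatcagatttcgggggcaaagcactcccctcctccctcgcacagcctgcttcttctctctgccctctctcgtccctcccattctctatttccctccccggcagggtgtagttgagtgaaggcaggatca

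The letters of 7 motifs were sought on both strands in all 32851 promoters of the table. The GC box, GGGCGG, was found in 35.7% of them, the E-box CACGTG in 7.15%, the core of HIF sites ACGTG in 19.6%, the CREB site TGACGTCA in 1.79% and its shorter form TGACG in 20.8%, the AP-1 site TGANTCA in 7.81% and the TATA box TATAAA in 13.6%. ACGTG lies within CACGTG and TGACG within TGACGTCA, so these counts overlap. The Fgf2 promoter held 1 GC box and 2 matches of TGACG, and the Ptn promoter none of the 7. A GC box was also found in promoters of Bdnf, Ntf3 and Vegfa, ACGTG in those of Bdnf, Gdnf, Ntf3 and Vegfa, TGACG in those of Bdnf, Gdnf and Vegfa, TGANTCA in those of Bdnf and Cntf, CACGTG in a promoter of Ntf3 and TATAAA in a promoter of Gdnf. A match is a run of letters in a window and says nothing of binding, as its lack says nothing of its absence elsewhere.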

How the data were processed

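Per the labels, the authors used Trimmomatic on the reads and STAR for alignment to GRCm38, and deposited raw counts of read pairs per gene, by strand and without strand. The unstranded counts were used. STAR leaves out pairs that match several places (mean 3.60%) or several genes (5.50%). Positions and lengths are from GENCODE M21, which holds 51719 of the 51912 genes.

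CPM and log2 fold changes were computed here with edgeR 4.0.16 in R 4.3.3 (TMM, robust quasi-likelihood fits; SE is the log2 fold change divided by the square root of F), tested on simulated data, with DESeq2 1.42.0 beside it. Tested were the 24495 genes with 10 or more read pairs in all 18 libraries together, with Benjamini-Hochberg adjustment over all of them and a threshold of 0.05. Standard errors were largest for Cntf and Ntf3, the genes with the fewest read pairs, and counting error and replicate spread were not separated.

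The members and lists were chosen with earlier results of these data known. Named are the 9 genes, their receptors, in each list the 2 most abundant per kilobase in IP control and the 2 with the largest called change at a mean of 1 CPM or more over IP control and IP ethanol, and the 2 genes most correlated with each member. Items withheld for evaluation are not reported here. Promoters, motifs and the count of genes that keep their place in the order of levels were chosen after the values were seen.

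Input and IP libraries of the same treatment and number come from 1 dish per the labels. Residual log2 values of such pairs correlated at 0.0509 to 0.0811 in control and 0.0191 to 0.153 in ethanol dishes (different dishes, means -0.0128 and -0.0182). Alternatives covered scaling, filters, strand, GC and length trends, blocks and leaving out each library.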

Additional observations from a re-analysis of the deposited data

Results flagged for a closer look

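The 9 genes were examined in IP control and IP ethanol for a library far from the others of its group, which makes 18 groups of 6 libraries. Chance flags about 1 in 20 groups, and 1 of the 18 was found. Gdnf in IP ethanol replicate 6, at 2.76 CPM, lay far above the other 5 libraries of its group, which were between 2.25 and 2.43 CPM, and within the range of IP control. Its excess was on the opposite strand (1.67 CPM, against 1.17 to 1.41 in the other 5), while on the strand of the gene it was at 0.986 CPM, within the 0.933 to 1.02 CPM of its group. Without it, the log2 fold change of ethanol in IP was -0.22 (adjusted p = 0.0631, the lowest over the alternatives, which reached 0.519), against -0.17 with it, so that it did not pass in either case.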

How the results depend on the processing

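Of 826 fold changes of the 9 genes under alternatives, 804 stayed on their side of the threshold, 19 no longer passed, 3 passed newly and 0 that passed turned in direction. The 826 include genes and interaction fits that had no call to lose. The ethanol call in IP was lost for Mdk in 7 of 23 alternatives, for Ptn in 3 and for Bdnf in 1. In input it was lost for Ptn in 4 of 15, and for Fgf2 and Hbegf in 1 each. Between IP and input, the call of Ntf3 was lost in 2 of 28. The count of genes changed by ethanol in IP (5) ran from 3 to 5 with 1 library left out and was 2 in IP replicates 4 to 6 alone, where Fgf2 and Hbegf passed. The count in input (3) ran from 1 to 3 with 1 library left out and was 4 with the trend of GC and length removed, and the count between IP and input (7) from 6 to 8 over all alternatives. IP replicates 1 to 3 alone, as many libraries as replicates 4 to 6, kept a count of 5. Over all genes tested it was the other way round. There 1824 rose and 1890 fell in IP replicates 4 to 6 alone, and 1623 rose and 1372 fell in IP replicates 1 to 3 alone. The cause was not tested. The interaction count stayed at 0 under its 26 alternatives by edgeR and DESeq2, with 1 of the 9 genes at an unadjusted p below 0.05 in the fit reported. The list genes changed in IP (42) ran from 30 to 52 and those in input (33) from 24 to 35. With 1 library left out, the log2 fold changes in IP ran from 0.16 to 0.21 for Fgf2, 0.08 to 0.11 for Ptn, 0.09 to 0.15 for Mdk, -0.18 to -0.12 for Bdnf and -0.14 to -0.12 for Hbegf.

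Control and ethanol dishes share only a replicate number. Libraries of the same number correlated at -0.104 to 0.221 in IP and 0.0195 to 0.0657 in input, and in neither fraction was every library closest to that of its own number. With that number as a replicate block, 5 genes passed in IP and 3 in input, with log2 fold changes in IP of -0.14 for Bdnf, 0.19 for Fgf2, 0.10 for Ptn, 0.13 for Mdk and -0.13 for Hbegf.

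Of 234 levels per kilobase under alternatives, 46 moved by more than the spread between replicates, all of them with the longest transcript as length or own-strand pairs alone. Fgf2 in IP control, for example, was at 7.04 CPM per kilobase by own strand. DESeq2 gave no adjusted p for Cntf in IP and input and for Ntf3 in input, and the stricter filter of edgeR removed Cntf from both ethanol comparisons. Input had 3 libraries a group, and the standard errors of Cntf and Ntf3, the genes with the fewest read pairs, were too large for small changes to be seen.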
